A study of Saccharomyces cerevisiae with 55 samples.

Results

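PAU2, PAU3, PAU5, PAU7, PAU15, PAU17, PAU19, PAU23 and PAU24 are members of the seripauperin family of budding yeast (Saccharomyces cerevisiae). They were chosen as the genes of that name in the annotation given with the array platform, which names 1 probe for each, and they are 9 of 5540 genes measured and 9 of 23 seripauperin genes on the array. RNA was measured on 2-colour arrays in 15 histone H4 mutants that carry arginine in place of lysine 5, 8, 12 or 16 of the H4 tail in every combination: K5R, K8R, K12R and K16R alone, the 6 double mutants, the 4 triple mutants and K5R/K8R/K12R/K16R. Channel 1 of each array held the parental strain with parental H4, MDY453 on 35 arrays or MDY470 on 20, and channel 2 held the mutant. After a technical pair was averaged there were 54 samples of 30 strains, 3 to 5 per mutant, 30 of them with K16R and 24 without.

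Values are log2 ratios centred on each array's median, given as likely mutant over parental, since the parental strain was the reference on every array. The sources used here state neither the dyes nor the direction nor the spot intensities, so levels of different genes cannot be set against each other. No pair of samples ran in opposite directions (the lowest correlation over genes was 0.00526 among 1431 pairs). All groups share a parental strain without substitutions as the comparator, and the labels give no age, medium or growth stage. The titles call some arrays of a strain biological replicates without saying whether these were separate cultures, and most arrays carry no such mark, so the p-values cover the spread seen between these samples, some of it possibly technical. Each value comes from bulk RNA of a culture, in which more cells that express a gene and more RNA per cell cannot be told apart.

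Seripauperins are small serine-poor proteins related to the TIR and DAN mannoproteins of the cell wall, and PAU23 and PAU24 also carry the older names DAN2 and DAN3. The family is repressed in air and is known for its induction during anaerobic growth, wine fermentation and cold. Most copies lie near chromosome ends. Acetylation of the H4 tail neutralises lysine and is linked to active chromatin, and arginine, which stays charged, stands in for a lysine that is never acetylated. Family members are close in sequence and probes can cross-hybridise, so like values of several members are not independent measurements.

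A substitution in H4 does not show in an array signal. The H4 genes themselves, HHF1 and HHF2, had log2 ratios between -0.59 and 0.61 and between -0.57 and 0.41 over the samples, with medians of 0.14 and 0.15. The spread of all genes widened with the number of substitutions: the SD over genes within a sample was 0.125 to 0.293 in the 12 samples with 1 substitution and 0.19 to 0.399 in the 22 with 2. It was 0.365 to 0.475 in the 16 samples with 3 and 0.598 to 0.679 in the 4 with 4. Of the 9 genes, 1 value was missing (PAU23 in K5R/K12R replicate 2) and 0 were at the ratio limit of 100.

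The seripauperin genes stayed close to the parental level in mutants with 1 or 2 substitutions and stood at 1.55-fold to 2.22-fold of it, on average, in mutants with 3 or 4. Averaged over the 9 genes, the log2 ratio lay between -0.11 ± 0.11 (SD, n = 3) in K12R and 0.17 ± 0.03 (n = 3) in K8R/K12R for the 10 mutants with 1 or 2 substitutions. It was 0.63 ± 0.09 (n = 3) in K5R/K8R/K16R, 0.72 ± 0.11 (n = 4) in K5R/K12R/K16R and 0.90 ± 0.06 (n = 4) in K8R/K12R/K16R. The highest means were 1.13 ± 0.41 (n = 4) in the quadruple mutant and 1.15 ± 0.38 (n = 5) in K5R/K8R/K12R.

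The order of the 15 mutants by this mean ran K12R, K5R, K16R, K8R, K5R/K16R, K5R/K8R, K12R/K16R, K5R/K12R, K8R/K16R, K8R/K12R, K5R/K8R/K16R, K5R/K12R/K16R, K8R/K12R/K16R, quadruple, K5R/K8R/K12R. Neighbours in the order differed by less than the larger of their SDs except at 3 places, K8R/K16R to K8R/K12R, K8R/K12R to K5R/K8R/K16R and K5R/K12R/K16R to K8R/K12R/K16R. All K8R/K12R samples came from 1 strain, MDY479 against MDY470, so the SD of that mutant holds no spread between strains. The strains of K8R/K16R averaged 0.12 (MDY463) and -0.0006 (MDY480). The gap between K8R/K12R and K5R/K8R/K16R, at 0.46, was the widest of the 14. It separates the mutants with 1 or 2 substitutions from those with 3 or 4.

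**Figure D1:**
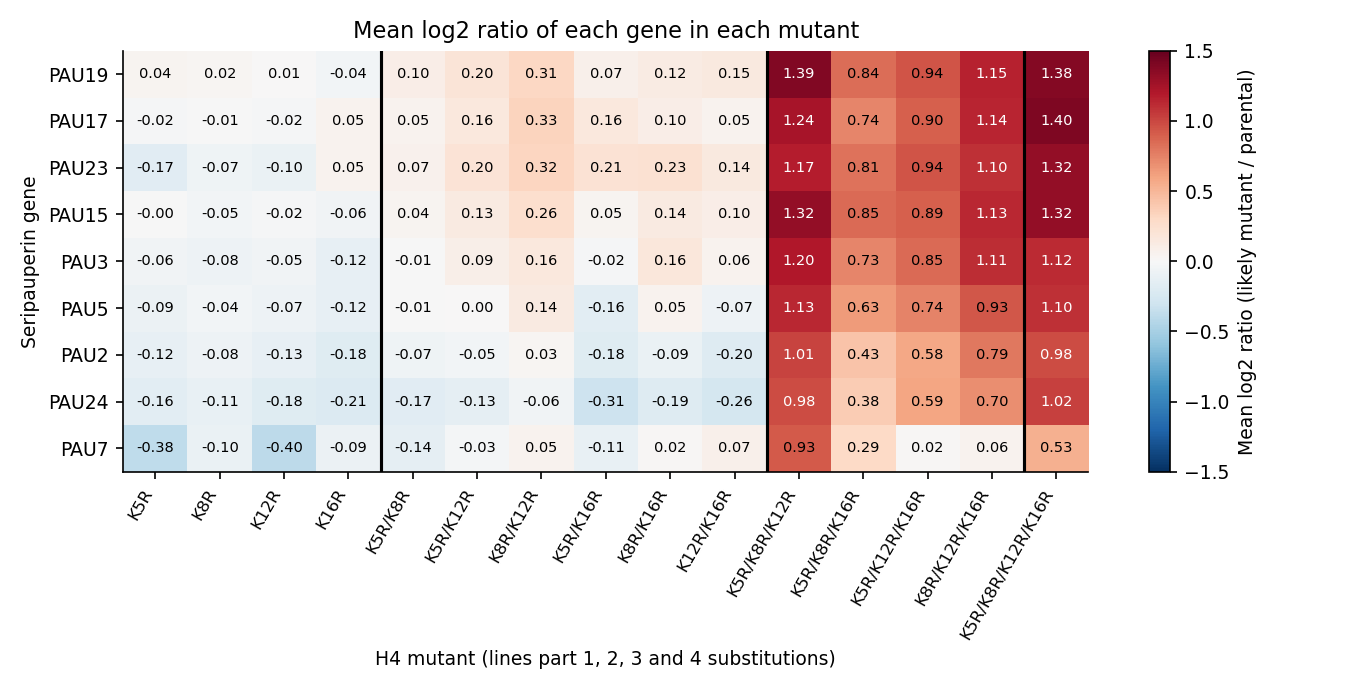
Mean log2 ratio (likely mutant over parental, colour and printed value) of the 9 seripauperin genes (rows) in the 15 H4 mutants (columns), with lines between mutants with 1, 2, 3 and 4 substitutions. Values with 3 or 4 substitutions run from 0.38 to 1.40 for 8 genes, and PAU7 stays at 0.02 and 0.06 in K5R/K12R/K16R and K8R/K12R/K16R.

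For 8 of the 9 genes every one of the 20 samples with 3 or 4 substitutions lay above all 34 samples with 1 or 2. Over all genes, 1.53% were separated upward in this way and 0.397% downward. PAU7 was the exception. For PAU19, at the end of chromosome XIII, the samples with 1 or 2 substitutions ran from -0.22 to 0.34 with a median of 0.10, and those with 3 or 4 from 0.76 to 1.99 with a median of 1.08. For PAU2, the corresponding ranges were -0.71 to 0.11 and 0.39 to 1.57, so its groups were apart by less. PAU3 ran from -0.26 to 0.35 and from 0.64 to 1.99, PAU5 from -0.34 to 0.29 and from 0.57 to 1.85, and PAU17 from -0.25 to 0.39 and from 0.67 to 1.90. PAU7 ran from -0.86 to 0.45 and from -0.46 to 1.74, and these ranges overlapped.

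PAU15, which lies near an end of chromosome IX, shows the pattern sample by sample. It read -0.08, 0.06 and 0.01 in K5R and -0.04, -0.02 and -0.11 in K16R. In K5R/K8R it read -0.02, -0.03, 0.14 and 0.05, and in K5R/K12R 0.09, 0.17 and 0.14. Samples with 1 substitution and those of these doubles overlapped. In K8R/K12R, from the strain MDY479 alone, PAU15 read 0.23, 0.24 and 0.30, above every sample with 1 substitution (highest 0.11). K5R/K16R, K8R/K16R and K12R/K16R had samples on both sides of that highest value.

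In the triple mutants PAU15 read 1.01, 0.87 and 0.66 in K5R/K8R/K16R and 1.12, 0.72, 1.00 and 0.72 in K5R/K12R/K16R. It read 1.26, 1.07, 1.20 and 0.98 in K8R/K12R/K16R and 2.07, 1.26, 1.03, 1.25 and 1.00 in K5R/K8R/K12R. The quadruple mutant gave 0.87, 1.12, 1.29 and 2.00. All triples and the quadruple overlapped each other, and all lay above every sample with 1 or 2 substitutions.

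PAU23, once DAN2, was the 1 gene that was already higher in doubles than in singles by the test given below. It read 0.08, 0.07 and 0.01 in K16R, 0.26, 0.14, 0.28 and 0.16 in K5R/K16R and 0.31, 0.21 and 0.43 in K8R/K12R. In K5R it read -0.24, -0.27 and -0.01. The K5R/K16R samples were all above those of K5R and of K16R. In K5R/K8R it read -0.02, 0.13, 0.23 and -0.06 and in K12R/K16R -0.01, 0.16, 0.29 and 0.14, and these doubles overlapped the single mutants.

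PAU24, once DAN3, had lower means than PAU23 in K16R and in every double mutant. In K5R, K8R and K12R the means of both genes were closer, with -0.16 for PAU24 and -0.17 for PAU23 in K5R. PAU24 read -0.30, -0.14 and -0.03 in K5R, -0.21, -0.24 and -0.18 in K16R and -0.32, -0.47, -0.21 and -0.24 in K5R/K16R. In the triple K5R/K8R/K16R it read 0.43, 0.40 and 0.31, and in K8R/K12R/K16R 0.61, 0.68, 0.78 and 0.73. Thus PAU24 lay below 0 in every K5R, K16R and K5R/K16R sample and above 0 in every sample with 3 or 4 substitutions.

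**Figure D2:**
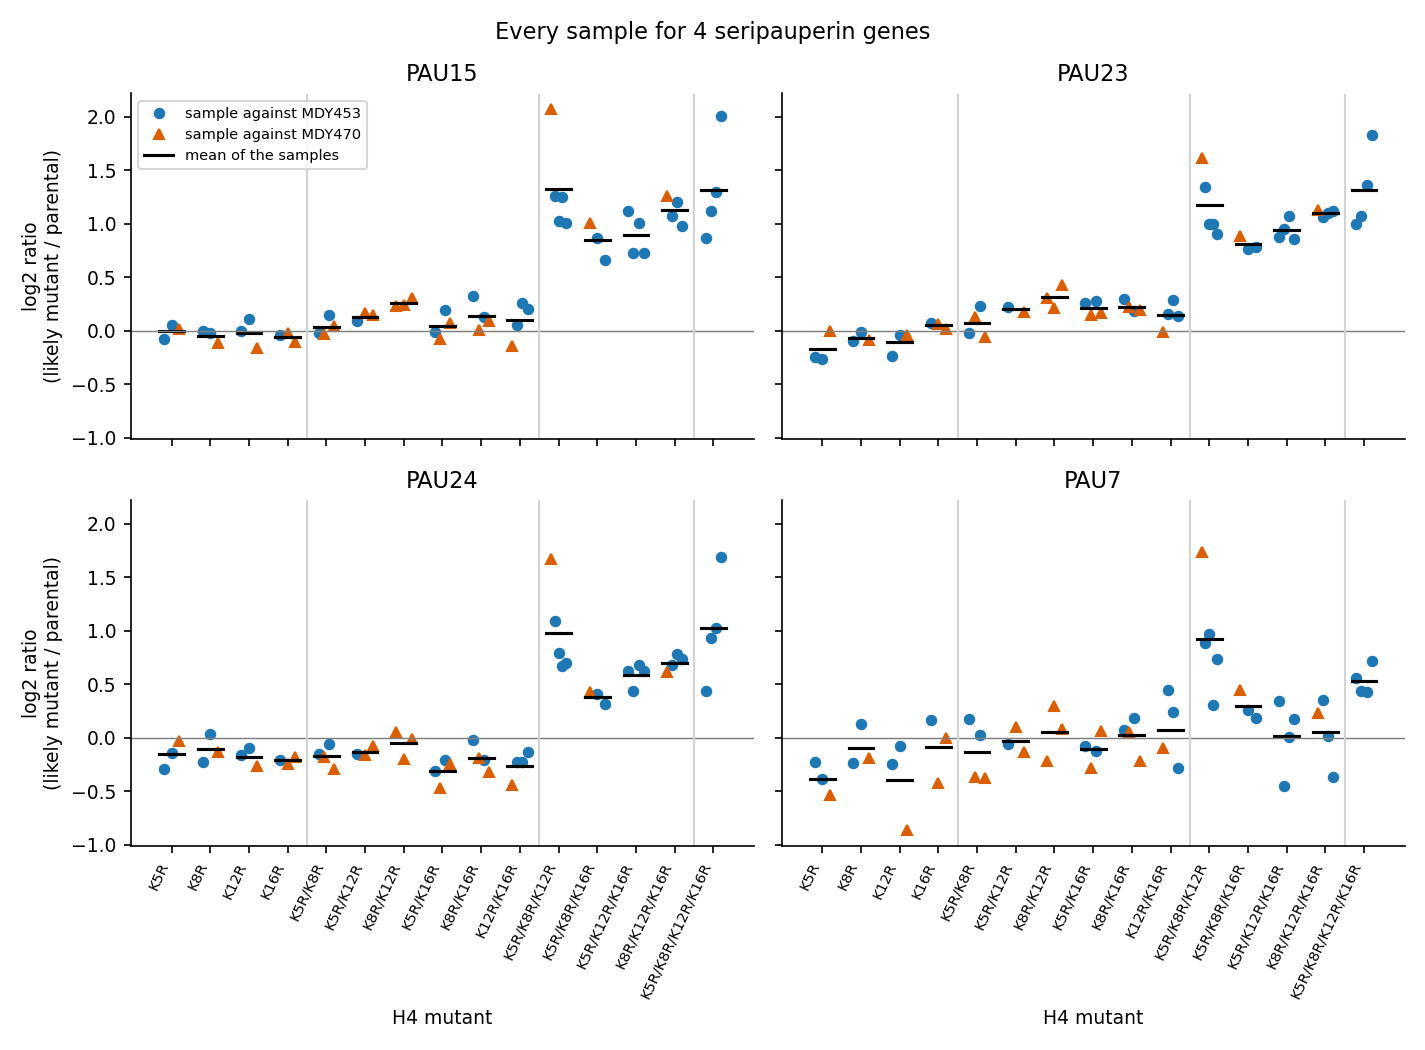
Log2 ratio (likely mutant over parental, vertical axis) of PAU15, PAU23, PAU24 and PAU7 in every sample of the 15 mutants (horizontal axis), circles against MDY453, triangles against MDY470, bars the mean of the samples. For PAU15, PAU23 and PAU24 no sample with 3 or 4 substitutions falls as low as a sample with 1 or 2, while the PAU7 samples of these classes overlap.

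Each mutant was tested against 0 with limma, with the strain as a random block and adjustment over all 5540 genes, a test without a term for spread among parental cultures. All 9 genes were higher in K5R/K8R/K12R, where 29.8% of all genes were higher, and all 9 in the quadruple mutant, where 37.1% were. In the triples with K16R, 8 of 9 were higher, PAU7 being the gene that did not pass. The background was 19.2% in K5R/K8R/K16R, 28.8% in K5R/K12R/K16R and 23.5% in K8R/K12R/K16R. In K8R/K12R, PAU17 (0.33) and PAU23 (0.32) were higher, 2 of 9 against 10.0% of all genes. That mutant was measured in 1 strain, MDY479. In K5R/K16R, PAU24 was lower (-0.31, adjusted p = 0.0397), 1 of 9 against 13.4%. Leaving out any K5R/K16R sample ended that call, and without centring PAU24 was not called (-0.27) and PAU23 was called higher (0.25). PAU24 was called lower again with arrays scaled to a common spread (-0.37, adjusted p = 0.000183) and without strains MDY482 and MDY487 (-0.31, adjusted p = 0.00103). In both of these settings PAU23 was called higher (0.24, adjusted p = 0.00248, and 0.21, adjusted p = 0.00831). With scaling PAU17 was also called higher, and PAU2 and PAU5 lower. Leaving out a K8R/K12R sample left 0 or 1 of 9 called there.

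In the 4 single mutants and the other 4 doubles 0 of 9 passed by limma in either direction, with 0 to 2 of 9 at an unadjusted p under 0.05. The shares of all genes called in either direction were 0.632% in K5R, 0.325% in K8R, 2.87% in K12R and 18.4% in K16R. They were 20.1% in K5R/K8R, 27.6% in K5R/K12R, 20.7% in K8R/K16R and 26.1% in K12R/K16R. With arrays scaled to a common spread, 3 of 9 were lower in K5R, 2 in K12R and 2 in K16R, where 17.3%, 16.4% and 18.9% of all genes were lower. In these doubles and in K5R/K16R 1 to 5 of 9 were called in either direction, beside 37.8% to 44.1% of all genes.

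The steps between numbers of substitutions were compared as averages over mutants, in contrasts added after the values had been seen. From 2 to 3 substitutions all 9 genes rose, where 24.2% of all genes rose and 23.6% fell. The largest rise was that of PAU15, 0.96 ± 0.08 (SE), or 1.95-fold, with an adjusted p of 2.33e-14. The smallest was that of PAU7, 0.38 ± 0.11, or 1.30-fold, with an adjusted p of 0.00293. The median of the 9 was 0.88 beside -0.0039 for all genes. Against MDY453 alone the step of the 8 genes other than PAU7 was 0.72 to 0.84, and against MDY470 alone it was 1.03 to 1.39, every adjusted p being at most 2.33e-06. The 2 sets average different mutants: that of MDY453 lacks K8R/K12R, and that of MDY470 lacks K5R/K12R/K16R and holds 1 sample of each other triple, the high MDY482 among them. For PAU7 it was 0.20 within MDY453, where it did not pass (adjusted p = 0.244), and 0.91 within MDY470. With arrays scaled to a common spread over genes, all 9 still passed, with rises of 0.26 (PAU7) to 0.69 (PAU24), where 20.7% of all genes rose.

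The step from 1 to 2 substitutions was small. PAU23 rose by 0.26 ± 0.06 (limma adjusted p = 0.00378), 1 of 9 against 4.33% of all genes, and the other 8 did not pass, with differences between -0.03 for PAU24 and 0.23 for PAU7. Within either parental set PAU23 did not pass (0.30 and 0.17, adjusted p 0.121 and 0.124), and with arrays scaled to a common spread 6 of 9 rose, where 11.3% of all genes did. The step to 3 substitutions exceeded the step to 2 in 8 of 9 genes, by 0.57 for PAU23 to 0.90 for PAU24, where 8.77% of all genes passed upward. For PAU7 the difference of steps was 0.14 (95% confidence interval -0.22 to 0.50, adjusted p = 0.675).

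From 3 to 4 substitutions, 5 of 9 genes rose, where 30.0% of all genes did. PAU17 rose by 0.41 ± 0.10 (limma adjusted p = 0.000948), PAU24 by 0.37 ± 0.12 and PAU23 by 0.32 ± 0.10, and PAU2 and PAU19 also passed. With every array scaled to the same spread over genes, 0 of 9 rose (9.57% of all genes did) and the differences ran from -0.23 for PAU3 to -0.0007 for PAU7. Scaling also removes the wider spread of the quadruple samples (median SD 0.67, beside 0.42 with 3 substitutions). Whether this step reflects array scale was not tested. Without strains MDY482 and MDY487, PAU17 was the 1 gene that passed (0.27). Without the MDY487 sample alone 0 passed, and without quadruple replicate 1, of MDY486, 7 did. The 8 genes other than PAU7 had 0.27 to 0.46 within the samples against MDY453, which include every quadruple sample. By limma all of these but PAU3 passed there (adjusted p from 0.000897 for PAU17 to 0.0832 for PAU3), and PAU7 did not (adjusted p = 0.128).

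**Figure D3:**
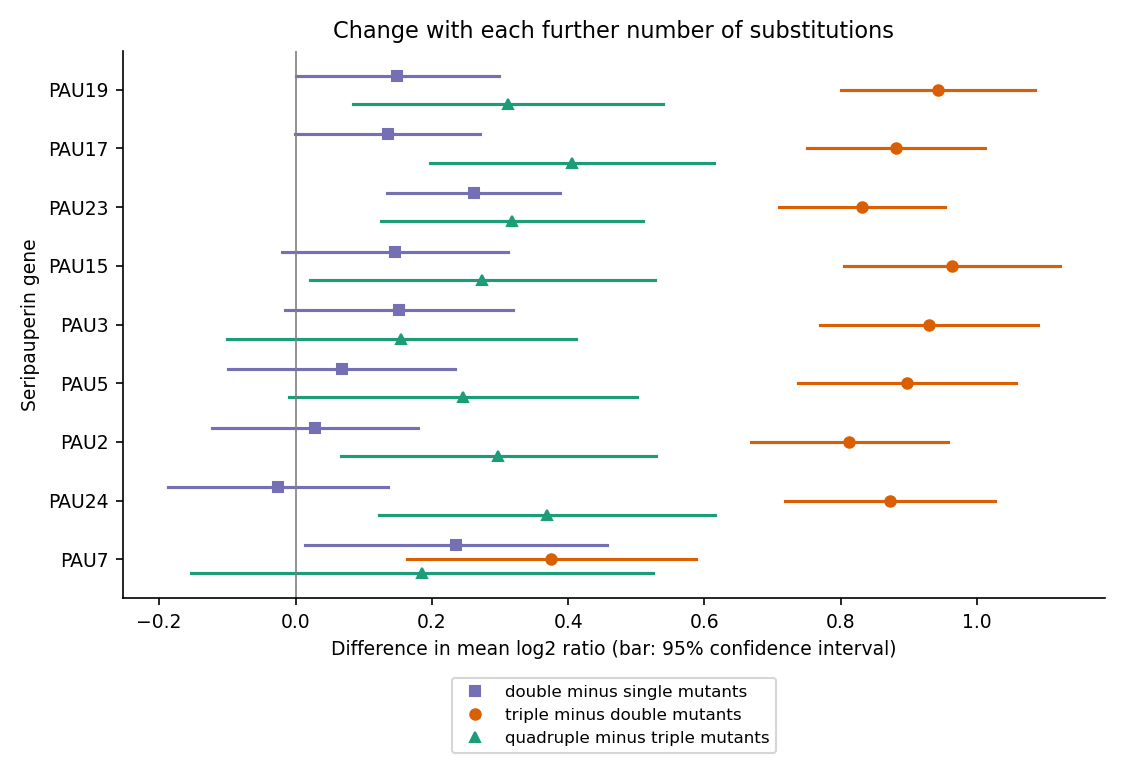
Difference in mean log2 ratio (horizontal axis, bars 95% confidence intervals) between double and single (squares), triple and double (circles) and quadruple and triple mutants (triangles) for the 9 seripauperin genes (vertical axis). The circles of 8 genes lie between 0.81 and 0.96, to the right of both other marks.

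Lysine 16 was compared with and without substitution in mutants otherwise alike. The averages over singles and over doubles were contrasts added after the values had been seen. Added to K5R, K8R or K12R, K16R left 8 of 9 genes short of the threshold, with differences between -0.11 for PAU24 and 0.30 for PAU7, and raised PAU23 by 0.30 ± 0.08 (limma adjusted p = 0.00503). That is 1 of 9, where 5.23% of all genes rose. In the samples against MDY453 PAU23 rose by 0.39 (adjusted p = 0.028), and within those against MDY470 it had 0.16 and did not pass (adjusted p = 0.253). Added to K5R/K8R, K5R/K12R or K8R/K12R, it raised 8 of 9, from 0.62 ± 0.09 for PAU2 to 0.83 ± 0.10 for PAU15, where 16.9% of all genes rose. The 8 genes rose by 0.47 to 0.76 within the samples against MDY453 and by 0.58 to 1.02 within those against MDY470. The first set holds the pairs of K5R/K8R and K5R/K12R and the second those of K5R/K8R and K8R/K12R, so the ranges cover different pairs. PAU7 differed by 0.17 (95% confidence interval -0.11 to 0.45). Added to K5R/K8R/K12R, it changed 0 of 9 by limma, with 1 of 9 (PAU7) at an unadjusted p under 0.05, and 23.4% of all genes rose and 19.3% fell there. PAU24 differed by -0.0061 (-0.32 to 0.30) and PAU7 by -0.48 (-0.90 to -0.05, adjusted p = 0.064).

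The differences between these K16R effects were tested themselves, again in contrasts added after the values had been seen. The effect in doubles exceeded that in singles for 8 of 9 genes, by 0.46 ± 0.11 (PAU23) to 0.79 ± 0.14 (PAU24), where 6.08% of all genes passed upward. The effect in K5R/K8R/K12R was below that in the doubles for all 9, by 0.62 ± 0.16 on the log2 scale for PAU17 to 0.95 ± 0.19 for PAU3, where 14.8% of all genes passed downward. Against MDY453 alone the first difference was 0.31 to 0.65 for the 8 genes and the second -0.55 to -0.33, and 0 passed (lowest adjusted p 0.174 and 0.122). Against MDY470 alone the first difference was 0.67 to 0.97 and all 8 passed, and that set holds no quadruple mutant. Without strains MDY482 and MDY487, 8 of 9 passed each of the 2 differences.

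Substituting a lysine other than 16 in a double mutant gave changes of the same direction. K5R/K8R/K12R exceeded K5R/K8R, which lacks K12R, by 1.13 (PAU2) to 1.37 (PAU15), in 9 of 9 genes where 15.5% of all genes rose. It exceeded K5R/K12R by 1.02 (PAU23) to 1.28 (PAU15) and K8R/K12R by 0.91 (PAU23) to 1.15 (PAU15), again in 9 of 9 (12.0% and 11.9% of all genes). These comparisons share the K5R/K8R/K12R samples, among them the high one of MDY482 (mean of the 9 genes 1.78, beside 0.99 in MDY465). K8R/K12R was measured against MDY470 alone, while MDY465 was measured against MDY453. The quadruple mutant exceeded K5R/K8R/K16R in 8 genes (26.8% of all genes), K5R/K12R/K16R in 6 (20.9%) and K8R/K12R/K16R in 0 by limma (25.5%), with 3 of 9 at an unadjusted p under 0.05.

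**Figure D4:**
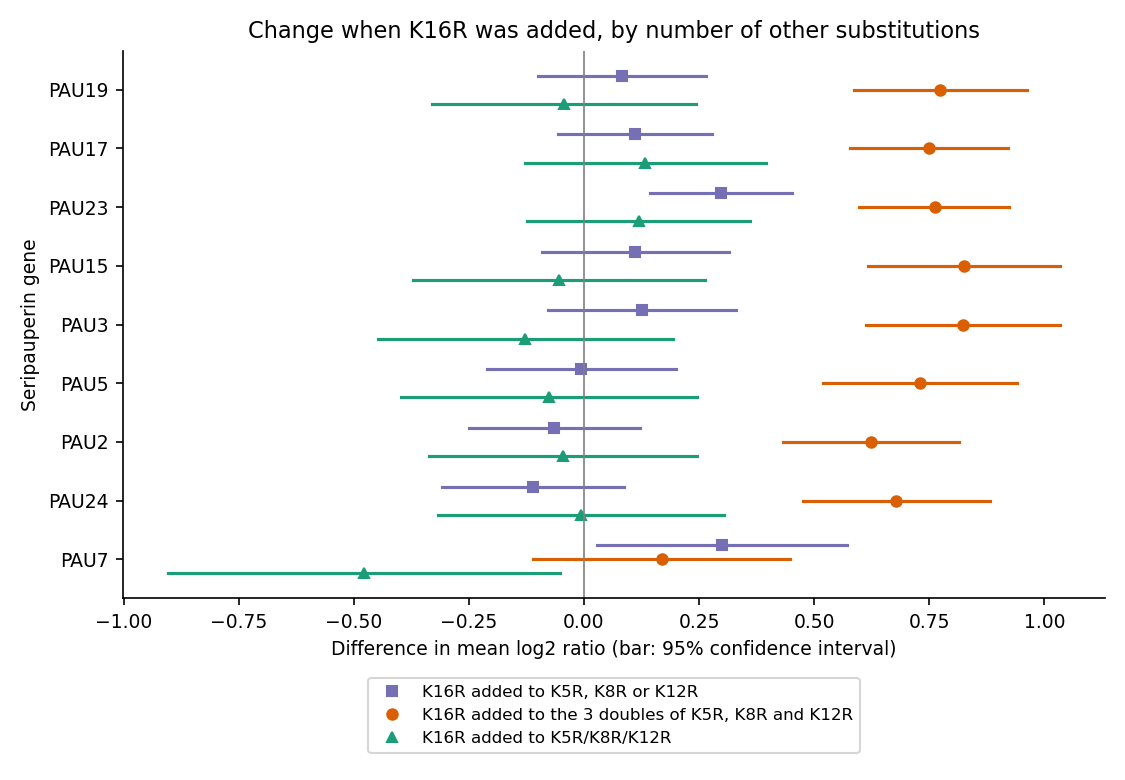
Difference in mean log2 ratio (horizontal axis, bars 95% confidence intervals) when K16R was added to 1 (squares), 2 (circles) or 3 (triangles) of the other substitutions, for the 9 seripauperin genes (vertical axis). The circles of 8 genes lie between 0.62 and 0.83, and the squares and triangles of those genes between -0.13 and 0.30.

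The additive model gives each position a mean effect over the mutants, with a free intercept and no sample without substitutions. In it the effects of K5R, K8R and K12R were above 0 and passed for all 9 genes. K5R gave 0.29 (PAU7) to 0.52 (PAU19), K8R 0.44 (PAU7) to 0.63 (PAU15), and K12R 0.32 (PAU7) to 0.67 (PAU19). The shares of all genes that rose were 20.5%, 19.4% and 26.0%. K16R raised 8 of 9, from 0.25 ± 0.08 for PAU2 to 0.49 ± 0.07 for PAU23, where 20.3% of all genes rose, and PAU7 had 0.15 ± 0.11 (limma adjusted p = 0.256). Fitted without an intercept, K5R and K16R raised 0 of 9, and the K16R effect was below 0 for PAU2 (-0.06) and PAU24 (-0.08). The single mutants themselves averaged -0.11 in K5R, -0.05 in K8R and -0.11 in K12R over the 9 genes. By their own tests 0 of 9 passed there. Against MDY453 alone the 8 genes had a K16R effect of 0.25 to 0.51, and within those against MDY470 of 0.15 to 0.52, where 1 passed.

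Differences among K5R, K8R and K12R passed for 0 of 9 genes by limma's F test (0.199% of all genes), the lowest adjusted p being 0.908 and 0 of 9 having an unadjusted p under 0.05. The K16R effect was below the mean of the other 3 for PAU2 alone (-0.25 ± 0.09, adjusted p = 0.0388), where 11.4% of all genes passed downward. With 1 of 54 samples left out in turn, 0 to 3 genes passed this difference. A linear trend in the K16R effect over 0 to 3 further substitutions passed for PAU7 (-0.39 per substitution, adjusted p = 0.0448), 1 of 9 where 1.99% of all genes passed downward, and the 6 pairwise products together for PAU17 (adjusted p = 0.0288), where 23.2% of all genes passed. Each lost its call when some single samples were left out. A difference of the K16R effect between parental strains passed for 0 of the 9 and 0 of the 5540 genes by limma (0.0%), with 0 of the 9 at an unadjusted p under 0.05.

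The 9 genes did not behave identically. Over the 15 mutant means, PAU7 correlated with the other 8 at r between 0.78 and 0.81, and the other 8 with each other at 0.952 to 0.999. Over the deviations of the 54 samples from their mutant means, the corresponding ranges were 0.31 to 0.52 and 0.69 to 0.91. These values describe genes measured on the same arrays with probes that can cross-hybridise, and no test is attached to them.

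PAU7 lies on chromosome I. It read -0.23, -0.39 and -0.54 in K5R without passing the test (mean -0.38 ± 0.16). In the triples with K16R it read 0.44, 0.26 and 0.18 (K5R/K8R/K16R), 0.34, -0.46, 0.00 and 0.18 (K5R/K12R/K16R) and 0.23, 0.35, 0.01 and -0.36 (K8R/K12R/K16R). In K5R/K8R/K12R it read 1.74, 0.88, 0.97, 0.30 and 0.73, and in the quadruple mutant 0.56, 0.43, 0.43 and 0.72. Its triples with K16R thus overlapped its doubles, and its spread within a mutant reached an SD of 0.52 in K5R/K8R/K12R and 0.41 in K12R.

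In the doubles the remaining members fell into an order. PAU17, PAU19 and PAU23 had means above 0 in all 6 doubles, PAU15 likewise, from 0.04 to 0.26, and PAU24 had means below 0 in all 6, from -0.31 in K5R/K16R to -0.06 in K8R/K12R. PAU2 was below 0 in 5 of 6. PAU24 and PAU2 were also the lowest of the 8 genes other than PAU7 in each of the 4 triples and in the quadruple mutant, with PAU24 at 0.38 ± 0.06 and PAU19 at 0.84 ± 0.13 in K5R/K8R/K16R. This order was seen in the data and carries no test.

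Strains of 1 mutant differed. In K5R/K8R/K12R the sample of MDY482, the only one of that mutant against MDY470, stood above the 4 of MDY465 for all 9 genes, with PAU3 at 1.99 beside 1.26, 0.75, 0.99 and 0.99. The high values of this mutant thus rest in part on 1 sample, and strain and parental strain cannot be told apart in it. In the quadruple mutant MDY487 stood highest for all 9 genes. PAU3 read 0.69 and 0.83 in MDY486, 1.23 in MDY469 and 1.74 in MDY487, the average of the technical pair. Without MDY482 and MDY487 the rise from 2 to 3 substitutions was 0.78 to 0.89 for the 8 genes and 0.30 for PAU7, and all 9 passed.

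By the order of coding genes on the R64 reference assembly, PAU19 (YMR325W) is the outermost gene of its arm of chromosome XIII, and PAU15 (YIR041W, chromosome IX) and PAU24 (YBR301W, chromosome II) have 1 gene between them and the end. PAU3 (YCR104W, chromosome III) has 4, PAU7 (YAR020C, chromosome I) 14, and PAU2 (YEL049W, chromosome V) 29. PAU17 (YLL025W) and PAU23 (YLR037C), both on chromosome XII, have 38 and 99, and PAU5 (YFL020C, chromosome VI) has 45. The other 14 seripauperin genes measured have 0 to 6. The rise from 2 to 3 substitutions was 0.83 for PAU23, with 99 genes to the end, and 0.94 for PAU19, with 0. PAU7, with 14, rose least. A link between the rise and this distance was not tested, and probes of the family can cross-hybridise.

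The nearest measured neighbours, up to 2 on each side, were 32 genes. From 2 to 3 substitutions 12 of them rose, 9 fell and 11 did not pass, with a median of -0.02, beside 24.2% and 23.6% of all genes. They ran from -0.997 for RDS1, a zinc-cluster transcription factor gene near PAU3, to 0.63 for YPS6, which encodes a putative aspartic protease and lies beside PAU15. Above PAU7, the lowest of the 9, stood 3 neighbours, YPS6, HSP104 (0.57, a protein disaggregase, beside PAU17) and GAT1 (0.43, an activator of nitrogen-regulated genes, beside PAU5). On both sides of PAU7 the nearest measured genes fell, CDC15, a kinase gene of mitotic exit, by 0.22 and DFP1 by 0.48 on the log2 scale. Those directly beside PAU23 had -0.19 (YLR036C) and -0.0058 (COX12, a cytochrome c oxidase subunit).

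The other 14 seripauperin genes on the array gave like values at the step from 2 to 3 substitutions and lower means in every double mutant. All 14 rose from 2 to 3 substitutions, by 0.69 (PAU16) to 0.96 (PAU21), median 0.91, and for 13 of 14, all but PAU10, the samples with 3 or 4 substitutions lay above all others. In the additive model K16R raised 10 of 14, with a median effect of 0.26 beside 0.38 for the 9 and -0.0004 for all genes. In K5R/K16R the 14 averaged -0.21 ± 0.13 (SD, n = 4) beside -0.03 ± 0.09 for the 9. The means were -0.14 beside 0.06 in K8R/K16R and -0.14 beside 0.0048 in K12R/K16R. In the doubles without K16R they were 0.05 beside 0.17 in K8R/K12R, -0.0019 beside 0.06 in K5R/K12R and -0.05 beside -0.02 in K5R/K8R.

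The TIR and DAN genes, which encode cell wall mannoproteins of cold and anaerobic growth, gave mixed values. From 2 to 3 substitutions 3 of 6 rose, where 24.2% of all genes did, TIR4 (0.58 ± 0.08), TIR1 (0.17 ± 0.07) and DAN4 (0.16 ± 0.06), TIR3 fell by 0.24 on the log2 scale, where 23.6% did, and DAN1 (-0.19) and TIR2 (0.05) did not pass. Their median was 0.10. In the quadruple mutant TIR4 had 1.39 and TIR3 -0.94, both past the threshold by limma (adjusted p 6.96e-16 and 8.08e-12).

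Other genes of the low-oxygen response were taken from lists of 9 hypoxic genes under the repressor Rox1, 13 regulators of anaerobic genes and 18 genes of ergosterol synthesis, a pathway that needs oxygen. Over all genes 24.2% rose and 23.6% fell from 2 to 3 substitutions, with a median of -0.0039. From 2 to 3 substitutions 3 of 9 hypoxic genes rose and 0 fell, COX5B (0.41), CYC7 (0.25) and ANB1 (0.18), with a list median of 0.04. COX5B and CYC7 encode hypoxic forms of a cytochrome oxidase subunit and of cytochrome c. Of the 13 regulators 8 rose and 2 fell, with a median of 0.12. The named ones were MOT3, a repressor of anaerobic genes (0.37), CYC8, a subunit of the Tup1 corepressor (0.35), and the haem-responsive activator HAP1 (0.11). Of the 18 ergosterol genes 2 rose and 5 fell, with a median of -0.05. ERG12, encoding mevalonate kinase, fell by 0.33 and ERG10, encoding acetoacetyl-CoA thiolase, by 0.14 on the log2 scale, and ERG27, a sterol reductase gene, rose by 0.12. The seripauperin median of 0.88 lay above every gene of these lists.

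**Figure D5:**
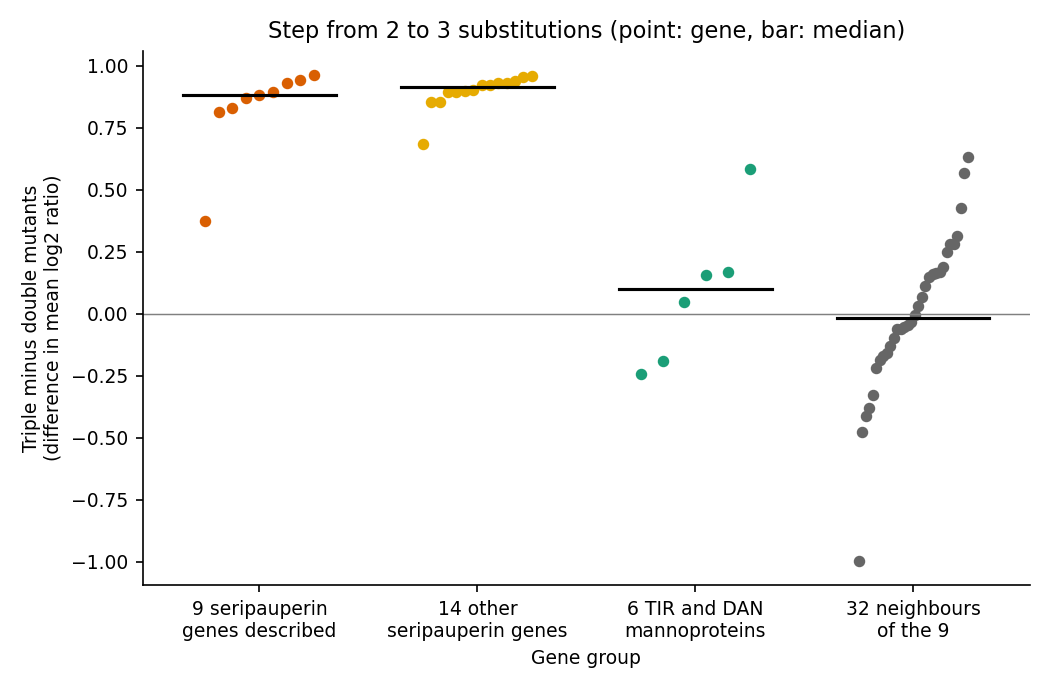
Difference in mean log2 ratio between triple and double mutants (vertical axis) for the 9 seripauperin genes described, the 14 others, 6 TIR and DAN genes and 32 neighbours of the 9 on the chromosome (points genes, bars medians). The medians are 0.88, 0.91, 0.10 and -0.02.

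Outside the family, the genes whose 15 mutant means were most like the mean of the 9 were MAN2 (r = 0.987), PUT1 (0.981), SPR28 (0.98), SPG4 (0.98) and NRG1 (0.977). PUT1, which encodes proline oxidase, reached 2.87 in K5R/K8R/K12R and 3.43 in the quadruple mutant, from -0.02 in K5R. MAN2, a mannitol dehydrogenase gene, went from -0.15 in K5R to 0.52 in both. By the deviations of the 54 samples from their mutant means the closest were CYB5 (r = 0.760), BRE5 (0.691), PCL5 (0.691), TIR1 (0.668) and AAD14 (0.657), and CYB5, a cytochrome b5 of sterol and lipid synthesis, averaged -1.14 in the quadruple mutant. No gene stood in both lists of 5. The other 14 seripauperin genes correlated with the mean of the 9 at 0.971 to 0.992 over mutant means and at 0.884 to 0.942 over the deviations.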

How the data were processed

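The authors deposited 1 table of log2 ratios for 55 two-colour arrays. Its base, direction, dyes, background correction and normalization are given in none of the sources used here. Base 2 was inferred from the largest size, 6.64, which is log2 of a ratio of 100. The platform annotation names 1 gene for 5570 of 6720 probes. Values at the limit (43 in named probes) were set to missing, unnamed probes were left out, probes of a gene were averaged, arrays were centred on their medians (-0.082 to 0.0413) and a technical pair (r = 0.927) was averaged. No gene failed the filter (a value in 2 of 3 samples and in 1 sample of each mutant). Reference names and gene order came from R64 (5565 probes matched).

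The fit covered all 5540 genes (limma 3.58.1, R 4.3.3), two-sided, Benjamini-Hochberg threshold 0.05, with the strain as a random block (correlation 0.205 in the mutant model and 0.346 in the additive model), after tests on simulated data. Levels are plain means, and effects come from the fit, which weights strains, so the 2 can differ. The number of arrays limits the precision. The 9 genes and all lists were chosen with earlier results of these data known, and the step and K16R-by-class contrasts after their values were seen. Named genes were the 9, the seripauperin, TIR and DAN genes, 3 per other list by the largest mean effect of K5R, K8R and K12R past the threshold, 5 most alike by each measure, neighbours, HHF1 and HHF2. A search of promoters for motifs was planned and not run, as no sequences were used here. Alternatives covered block, centring, scaling, limit values, probes, parental set, the arrays labelled (s), replicate block and samples left out.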

Additional observations from a re-analysis of the deposited data

Results flagged for a closer look

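In groups of 4 or 5 samples, 4 of 72 gene and mutant combinations held a sample far from the rest of its group, and chance alone gives about 1 in 20. In K5R/K8R/K12R the MDY482 sample stood above the other 4 for PAU5 (1.85 beside 0.85 to 1.01) and PAU15 (2.07 beside 1.00 to 1.26). In K5R/K16R replicate 3, of MDY461, read 0.0767 for PAU5 beside -0.25 to -0.23. In K8R/K16R replicate 2, of MDY480, read -0.0486 for PAU17 beside 0.14 to 0.17.

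Over all samples, some differences of the K16R effect between backgrounds passed a test of the difference itself. Apart from the trend, these contrasts were added after their values had been seen, so their p-values are no independent support. The change of the K16R effect per further substitution was -0.39 for PAU7. With 1 sample left out in turn, 0 genes passed this trend in 17 of 54 runs. The effect in doubles minus that in singles was 0.71 for PAU15, 0.64 for PAU17, 0.69 for PAU19, 0.69 for PAU2, 0.46 for PAU23, 0.79 for PAU24, 0.70 for PAU3 and 0.74 for PAU5. The effect in K5R/K8R/K12R minus that in doubles was -0.88 for PAU15, -0.62 for PAU17, -0.82 for PAU19, -0.67 for PAU2, -0.64 for PAU23, -0.68 for PAU24, -0.95 for PAU3, -0.81 for PAU5 and -0.65 for PAU7. Without K5R/K8R/K12R replicate 1, the MDY482 sample, 7 of the 9 latter differences passed, the lowest count with 1 sample left out, and without both MDY482 and MDY487 8 did. Against MDY453 alone, the only parental set with the quadruple mutant, both differences were smaller for the 8 genes other than PAU7. By limma 0 of them passed there (lowest adjusted p 0.174 and 0.122). Doubles minus singles was 0.31 to 0.65 there, and K5R/K8R/K12R minus doubles was -0.55 to -0.33.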

How the results depend on the processing

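Values below are how many of the 9 genes were called. Shares over all genes are given here for scaled arrays alone. Elsewhere the counts show how calls moved, not how the 9 genes stood beside all genes. With 1 choice changed, 332 such counts stayed within 1.5 times, 73 moved and 1 reversed, and with 1 sample left out 1026 stayed and 54 moved; the cause was not tested. The rise from 2 to 3 substitutions was called for all genes tested under every alternative run, except within the samples against MDY453, where 8 of 9 were called. With 1 value per strain the counts were 0 in K5R/K16R and K8R/K12R, 0 for K16R minus the mean of the other sites, the K16R trend, the pairwise products, doubles minus singles and K16R added to singles, and 14 beside 24 over the pairs that differ by K16R. Without the arrays labelled (s) these were 0 for all but the pairs, and 3 for quadruple minus triple. With arrays scaled to a common spread they were 2 in K12R, K16R, K5R/K12R and K8R/K16R, 3 in K5R and K12R/K16R, 5 in K5R/K16R, 1 in K5R/K8R, 4 in K8R/K12R, 0 for K16R minus the mean, the products and quadruple minus triple, 6 for doubles minus singles and 3 for K16R added to singles. Of all genes, 34.9% to 37.9% were then called in either direction in these singles and 37.7% to 44.1% in the doubles. The shares were 24.3% for doubles minus singles and 32.1% for K16R added to singles.

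With all probes, K8R/K12R had 1 and the trend 0. With genes measured in every sample, which drops PAU23, K8R/K12R had 1, and doubles minus singles and K16R added to singles 0. Without centring, K5R/K16R had 1 higher in place of 1 lower, K8R/K16R 1 and K16R minus the mean 0. Without the strain block, K12R/K16R and K8R/K16R had 1, K5R/K16R 2, and K16R minus the mean and the products 3. The labels do not pair samples by number; with the replicate block K12R/K16R had 1 and K8R/K12R 0. The additive model without intercept called 0 for K5R, K16R and K16R minus the mean, with K16R at -0.0583 for PAU2 and -0.0793 for PAU24. Without MDY482 and MDY487, chosen after seeing the data, K12R/K16R and K5R/K16R had 2, K8R/K12R 4, K8R/K16R 1, doubles minus singles 3, quadruple minus triple 1, and K16R minus the mean, the trend and the products 0.

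Within the samples against MDY453 the count was 0 in K5R/K16R and for K16R minus the mean, the trend, the products, doubles minus singles and both differences of K16R effects. Within those against MDY470 it was 3 in K12R/K16R, 2 in K5R/K16R, 4 in K8R/K12R and for K5R, 1 for K16R, 8 for the products, and 0 for K16R minus the mean, the trend, doubles minus singles and K16R added to singles. Leaving out 1 sample gave 0 to 1 in K12R/K16R, 0 to 0 in K5R/K16R, 0 to 1 in K8R/K12R, 0 to 3 for K16R minus the mean, 0 to 1 for the trend, 0 to 3 for the products and 0 to 7 for quadruple minus triple. The K16R effect of PAU7 ran from 0.11 to 0.22. Spot intensities were not used here, so signal over background is unknown.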
